A study of Mus musculus with 113 samples.

Results

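Mouse 8-cell (8C) embryos injected with siRNAs against *Nr5a2*, *Rarg* and *Nr1h3* together, a triple knockdown (KD) that leaves *Nr2c2* untargeted, were compared with embryos injected with a negative control siRNA (NC). The members are the 2 KD and the 2 NC libraries that carry these labels, 4 of the 92 libraries with an FPKM file in a series of 113 samples. In all 24 libraries at 8C were used. All embryos were wild type by label and came from superovulated mice, which by the study's methods were C57BL/6N females mated to PWK/PhJ males. By the labels each of the 3 genes received siRNA at 5 μM, and the NC embryos received 15 μM NC siRNA, where the study's methods give 20 μM. The comparison groups of the same experiment were the 3 other triple knockdowns, each with *Nr2c2* siRNA in place of 1 of the siRNAs above, at 5 μM per gene, with 2 libraries each and with the same NC. Embryos in which all 4 genes were knocked down (4KD) and single KD embryos were also used, and each of these experiments had NC libraries of its own. By the labels their NC siRNA was at 20 μM in the 4KD experiment and at 5 μM in the single KD experiment. The labels give 5 μM for the knockdown embryos of both. An siRNA knockdown leaves the alleles intact and lowers the mRNA only in part.

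The 4 targeted genes of the series encode nuclear receptors, transcription factors that bind DNA at short elements built around an AGGTCA-like core. NR5A2 binds as a monomer to an extended half-site, and it acts in the early embryo, the liver and the pancreas. RARG, a retinoic acid receptor, and NR1H3, the oxysterol receptor LXRα, bind as heterodimers with RXR, while NR2C2 (TR4) binds as a dimer that can repress or activate. Removing 1 siRNA at a time from the mixture of 4 asks which of the receptors the transcription change of the embryo depends on, and here the receptor left in place was NR2C2.

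RNA of small pools of embryos was measured with Smart-seq2, and the deposited values are FPKM, fragments scaled to transcript length and to library size, without read counts. FPKM summed to 384329 to 543248 per library in the 10 libraries of the experiment, and 8233 to 8981 genes reached an FPKM of 1. The depth is unknown. A relative depth, read from the spacing of low FPKM values, ran from 0.855 to 1.23 with the median of the 10 set to 1. All 9 preimplantation embryo markers, among them *Pou5f1* and *Dppa3*, were at an FPKM of at least 1 in each of the 4 libraries. Of 8 cumulus and granulosa cell markers 6 or 7 were at 0 in each library, and their summed level was 4.28 to 14.5 FPKM in NC and 3.42 to 20.3 in KD, nearly all of it *Amhr2*. Of 6 oviduct and blood cell markers 3 to 5 were at 0, and the summed level was 23.0 and 24.5 in NC and 42.6 and 129 in KD. That difference lay in *Hba-a1*, a globin gene, at 24.5 and 22.1 FPKM in NC and 42.6 and 128 in KD (log2 fold change 1.63, adjusted p = 0.518). In the triple knockdowns that spare *Rarg*, *Nr1h3* and *Nr5a2* its log2 fold change was 1.52, 2.35 and -0.44. Against NC of their own, 4KD embryos had 1.74 and single *Nr5a2* KD embryos 1.84. The single KDs of *Rarg*, *Nr1h3* and *Nr2c2* had 7.26 to 21.4 FPKM of *Hba-a1*, and their NC 18.1 and 9.78. The source of the *Hba-a1* reads and their part in the results below were not tested. In such pools fewer cells with a transcript and less RNA per cell cannot be told apart.

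*Nr5a2* (mm9, 1:138740161-138857004, minus strand) stood at 43.5 and 30.5 FPKM in the NC libraries and at 8.72 and 5.99 in the KD libraries. The means were 37.0 ± 9.21 and 7.35 ± 1.93 (SD, n = 2), a log2 fold change of -2.18 ± 0.51 (SE). *Nr1h3* (mm9, 2:91024218-91042991, minus strand) went from 19.8 and 11.7 FPKM in NC to 0.207 and 2.51 in KD, a log2 fold change of -2.98. For both genes the KD libraries lay below both NC libraries. The adjusted p values were 0.231 for *Nr5a2* and 0.214 for *Nr1h3*, and 0.0549 and 0.0510 in a fit that blocks on the replicate number. *Rarg* (mm9, 15:102065369-102087948, minus strand) was measured at 17.6 and 2.18 FPKM in NC and 2.33 and 2.40 in KD. Its groups overlapped, because the second NC library was as low as the KD libraries. In replicate 2 *Rarg* lay between 2.18 and 4.54 FPKM in all 5 libraries, the *Rarg*-spared one included, so a loss of *Rarg* mRNA was seen in replicate 1 only (-2.48 against 0.09 on the log2 scale). *Nr2c2* (mm9, 6:92041384-92123051, plus strand), the receptor left in place, had 10.0 and 2.98 FPKM in NC and 6.37 and 9.30 in KD. In the 3 other triple knockdowns it was between 0.465 and 1.28 FPKM.

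**Figure D1:**
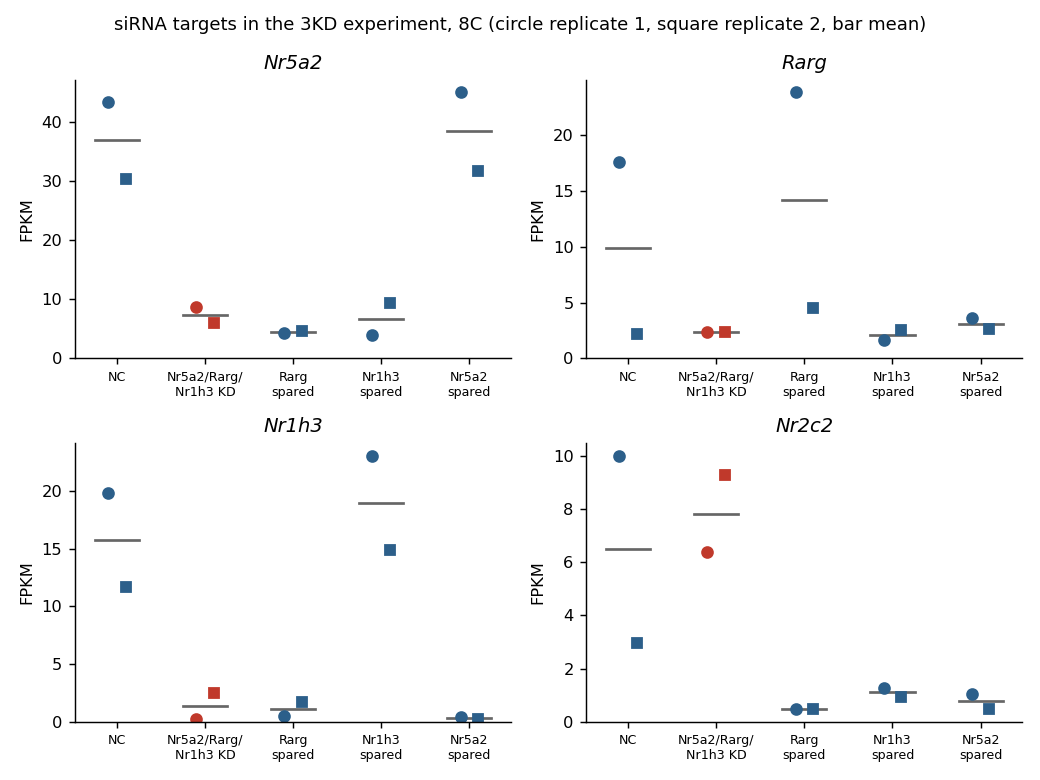
FPKM of the 4 receptor genes in the 5 groups of the experiment, 1 point per library (circle replicate 1, square replicate 2) and a bar at the mean. *Nr5a2* and *Nr1h3* sit low in the *Nr5a2*/*Rarg*/*Nr1h3* KD embryos in red, *Nr2c2* sits at 6.37 and 9.30, and *Rarg* is low in every replicate 2 library.

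Among the closest relatives of the targets, *Nr5a1* and *Rara* did not pass the filter of a mean FPKM of 1 in a group. *Nr1h2*, which encodes LXRβ, was the most abundant of them at 51.6 and 16.5 FPKM in NC and 49.5 and 21.4 in KD. *Rarb*, at 1.15 and 3.49 FPKM in NC, was at 9.39 and 4.06 in KD (adjusted p = 0.745). *Nr2c1*, the paralog of *Nr2c2*, was at most 1.5 FPKM in the 4 libraries. None of the relatives passed the test.

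No gene of 10626 passed the test at an adjusted p of 0.05 when the 10 libraries were fitted with limma without regard to the replicate number, and 783 genes had an unadjusted p under 0.05, of which 310 were lower (2.92%) and 473 higher (4.45%) in KD. Same-numbered libraries departed from the means of their groups together in every pair of groups (r from 0.278 to 0.513 across genes). With the replicate number as a block 34 genes were lower and 31 higher in KD at an adjusted p of 0.05, which is 0.32% and 0.292% of the genes tested. All 65 differed at least 2-fold in the same direction in both replicates, as 244 lower and 415 higher genes of the whole table did. At the limits that the study's methods give, an adjusted p of 0.01 with a log2 change of 2 or more, 2 genes were lower (0.0188%) and 4 higher (0.0376%) with the block and 0 passed without it. The blocked calls rest on both replicates of both groups, and without 1 library 0 to 3 of the genes tested were called. The unblocked fit is the main one. The 34 lower and 31 higher genes below are the blocked calls. In the gene lists, counts of lower and higher members give the direction only, and members that passed are named as called. An exact permutation test of 2 against 2 libraries cannot go below p = 0.333, so the tests draw on a spread estimated over many genes.

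**Figure D2:**
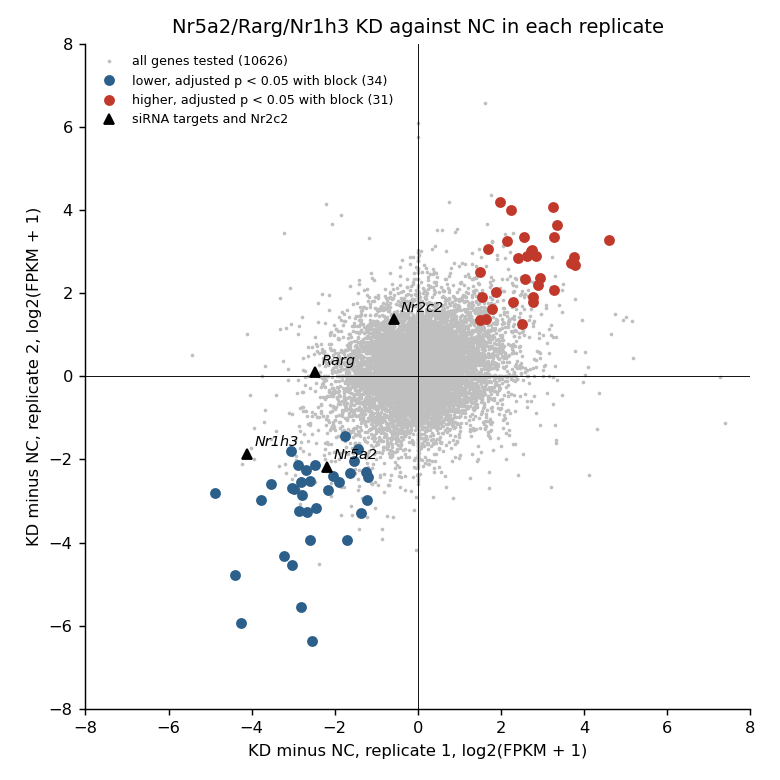
Difference between KD and NC in log2(FPKM + 1) for replicate 1 (x axis) and replicate 2 (y axis), 1 point per gene, with 34 genes lower (blue) and 31 higher (red) in the blocked fit and the 4 receptor genes as triangles. *Nr5a2* lies at about the same value on both axes, while *Rarg* and *Nr2c2* differ between the replicates.

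The gene with the largest fall was *S100a3*, an S100 calcium-binding protein gene, with 45.3 and 133 FPKM in NC and 1.44 and 1.18 in KD. Its log2 fold change was -5.09, with an adjusted p of 0.0503 without the block, the lowest of all genes, and 0.00936 with it. *Khdc3*, which encodes a KH-domain protein of the subcortical maternal complex of oocytes and early embryos, went from 96.0 and 152 FPKM to 3.58 and 4.53. The prolactin-family gene *Prl3b1*, placental lactogen in later development, had 85.7 and 276 FPKM in NC and 13.8 and 2.34 in KD. In these 3 genes every KD library was far below every NC library.

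*Tdgf1* (mm9, 9:110842114-110848662, minus strand), a NODAL co-receptor gene of the early embryo, had 46.6 and 97.2 FPKM in NC and 2.49 and 11.4 in KD (log2 fold change -3.38, adjusted p = 0.177, blocked 0.0188). *Tdh*, threonine dehydrogenase, an enzyme on which mouse embryonic stem cells depend for one-carbon metabolism, went from 51.7 and 40.2 FPKM to 0.787 and 4.93. *Sdc4*, a heparan sulfate proteoglycan of the cell surface, went from 46.4 and 71.3 FPKM to 4.78 and 2.1. Enzymes and transporters on the list included *Bhmt* (betaine-homocysteine methyltransferase), *Gulo* (the last step of vitamin C synthesis), *Vnn1* (pantetheinase) and *Slc12a7* (a potassium-chloride cotransporter). *Bhmt*, one of the most abundant, stood at 319 and 737 FPKM in NC and at 138 and 136 in KD.

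Further lower genes, named here by their known roles, were these. *Lonp2*, the peroxisomal protease, had 59.4 and 57.1 FPKM in NC and 9.95 and 12.3 in KD. *Pex16*, a peroxin needed to form the peroxisomal membrane, had 88.9 and 179 FPKM in NC and 36.9 and 35.4 in KD. *Psme1*, a subunit of the proteasome activator PA28, fell from 68.8 and 131 FPKM to 8.97 and 1.83. *Atg4b*, a cysteine protease of autophagy, *Vps29*, a retromer subunit, and *Tex264*, an ER-phagy receptor, were lower too. *Crxos*, one of the most abundant of the 34, was at 1267 and 4052 FPKM in NC and 545 and 517 in KD. *Abhd11os*, *Mxd3* and *2200002J24Rik* were listed at 0 in both KD libraries. In NC *Abhd11os* had 5.04 and 14.3 FPKM, *Mxd3* 5.90 and 6.28 FPKM and *2200002J24Rik* 6.83 and 5.56 FPKM. The counting is not stated to use strand, so reads of *Abhd11os* and of its antisense partner cannot be told apart.

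The remaining lower calls covered a wide range of levels. *Mbl2*, mannose-binding lectin of innate immunity, had 12 and 18.9 FPKM in NC and 0.397 and 0 in KD. *Crip2*, a LIM domain protein, had 141 and 304 FPKM in NC and 42.3 and 18.9 in KD. *Vnn1* had 107 and 133 FPKM in NC and 15.7 and 27.1 in KD. In these 3 genes both KD libraries were below both NC libraries. *Gulo* had 147 and 122 FPKM in NC and 53.5 and 35.2 in KD. *Tex12*, a synaptonemal complex protein, had 29.3 and 55.6 FPKM in NC and 4.57 and 5.32 in KD. *Serpinb6a*, a serine protease inhibitor, had 19.9 and 33.7 FPKM in NC and 4.09 and 5.62 in KD. The same separation was seen in these genes, at lower and at higher levels. *Rpp21*, a subunit of ribonuclease P, had 85.6 and 194 FPKM in NC and 24.6 and 71.4 in KD. *Creg1* had 30.1 and 48.6 FPKM in NC and 7.35 and 7.45 in KD. *Atg4b* had 124 and 155 FPKM in NC and 39.3 and 30.2 in KD.

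The naming rule added *Defb42*, *Dcbld1* and *Nr1h3* itself to the lower genes, none of which was called in either fit. *Dcbld1* had 28.7 and 19.5 FPKM in NC and 0.921 and 4.17 in KD. *Defb42*, a beta-defensin gene, had 17.7 and 13.3 FPKM in NC and 0 and 2.30 in KD.

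The sequences before the transcription starts of the called genes were read for the extended half-site of NR5A2, and those that hold it are shown so that the letters can be read beside the values of their genes. Promoters (250 bases before the RefSeq start) were found for 28 of 34 lower genes and for 27 of 31 on the higher side, and 2 spellings were searched on both strands, CAAGGTCA and CAAGGCCA. At least 1 of them stood in 5 of 28 promoters of lower genes (17.9%), in 0 of 27 on the higher side, in 258 of 8554 of all genes tested (3.02%) and in 3.28% of all 32851 promoters of the table. The shorter core AGGTCA, which is part of CAAGGTCA, stood in 7 of 28 promoters of lower genes (25.0%), in 5 of 27 of higher genes (18.5%) and in 13% of those of all genes tested. Over the 509 genes lower (4.79%) and the 853 higher (8.03%) at an unadjusted p of 0.05 with the block, either spelling stood in 26 of 415 (6.27%) and 15 of 680 (2.21%) promoters found. The 5 are printed 5′ to 3′ on the strand of the gene, with the match in capitals, which reads TGACCTTG or TGGCCTTG where it is on the opposite strand. For *Prl3b1* the whole window is given (mm9, chr13:27334049-27334298, plus strand), and for the others, whose windows overlap annotated exons, 30 bases around the match. They lie at chr9:72949986-72950015 (*Khdc3*, plus strand), chr13:49343801-49343830 (*Susd3*, minus), chr4:143870466-143870495 (*Pramel5*, minus) and chr13:94407769-94407798 (*Bhmt*, minus).
Prl3b1: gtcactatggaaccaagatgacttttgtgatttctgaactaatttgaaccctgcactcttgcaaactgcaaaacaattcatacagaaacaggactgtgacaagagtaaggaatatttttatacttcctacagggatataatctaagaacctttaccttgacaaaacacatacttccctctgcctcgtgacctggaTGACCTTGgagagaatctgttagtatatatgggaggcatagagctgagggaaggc
Khdc3: tgagattagatTGGCCTTGaagtcaggtaa
Susd3: ctgtcactctcCAAGGTCAcctgcctggcc
Pramel5: gacagggagttCAAGGCCAtctgggattaa
Bhmt: tgaccccagatCAAGGTCAgaggcctgcta

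The match lies 48 to 55 bases before the start in *Prl3b1*, 67 to 74 in *Bhmt*, 108 to 115 in *Pramel5*, 149 to 156 in *Susd3* and 201 to 208 in *Khdc3*, counted from the RefSeq start. In the mm9 annotation (GENCODE vM1) the stretches of *Susd3* and *Bhmt* lie in exons of these genes, whose annotated starts are farther upstream. That of *Khdc3* overlaps an exon annotated there, on the same strand, as *2410004A20Rik*. This annotation has no gene under the name *Khdc3*, so the exon may be one of *Khdc3* itself under another name. Those of *Prl3b1* and *Pramel5* lie outside the genes. *Susd3*, a sushi-domain protein gene, had 16.9 and 28.2 FPKM in NC and 1.45 and 2.07 in KD. *Pramel5*, of a gene family with near-identical copies whose reads may be shared, had 150 and 209 FPKM in NC and 17.6 and 31.9 in KD. A match is a description of the letters, not of a bound site.

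Of the 31 higher genes *Pllp* and *Plekhb2* had the lowest adjusted p without the block, 0.0733 for each. *Pllp*, a proteolipid of myelin and epithelial membranes, had 0 and 0.475 FPKM in NC and 23.3 and 13.5 in KD, and *Plekhb2*, a recycling-endosome protein, 2.65 and 3.51 in NC and 49.1 and 27.8 in KD. *Krt8* (mm9, 15:101827142-101834773, minus strand), the keratin of the trophectoderm and other simple epithelia, stood at 2.82 and 2.42 FPKM in NC and 48.3 and 21.5 in KD (log2 fold change 3.20, adjusted p = 0.21, blocked 0.0094). Its reads can be shared with processed copies of the gene. Some higher genes have known roles in lipid metabolism. *Plin2*, a lipid droplet coat protein, went from 5.18 and 10.8 FPKM to 29.2 and 39.8, and *Dgat2*, which makes triglycerides, from 31.4 and 15.6 to 90.2 and 94.0. *Lpcat1* (phosphatidylcholine remodelling), *Gdpd1* (a lysophospholipase D) and *Rdh12* (a retinol dehydrogenase) were higher too, *Rdh12* at 0.824 and 1.10 FPKM in NC and 16.5 and 34.2 in KD. *Ldha*, lactate dehydrogenase A, passed the blocked limit barely (4.49 and 1.25 FPKM in NC, 25.0 and 35.4 in KD, blocked adjusted p = 0.0499).

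*Dusp6*, the phosphatase that ERK signalling induces, went from 1.60 and 3.93 FPKM to 18.4 and 21.7. *Efna3*, an ephrin, *Procr*, the protein C receptor, *Cd24a* and *B2m*, the light chain of MHC class I, were also higher. *Cd24a* had 20.5 and 21.9 FPKM in NC and 68.4 and 189 in KD, and *B2m* 30.1 and 86.0 in NC and 174 and 207 in KD. *Mest*, an imprinted gene expressed from the paternal allele, was at 0.504 and 0 FPKM in NC and 9.81 and 6.5 in KD. *Cabp1*, *Rln3* and the replication-dependent histone gene *Hist1h3b* were listed at 0 in both NC libraries and stood at 5.72 to 11.6 FPKM in KD. *Hist1h3b* belongs to a family of near-identical genes, so its value is uncertain. The naming rule added *Myl4*, listed at 0 in both NC libraries and at 2.07 and 95.1 FPKM in KD, and *Oaz1-ps*, a pseudogene whose reads may be those of *Oaz1*, at 0 to 0.01 FPKM in NC and 35.0 and 1.54 in KD.

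**Figure D3:**
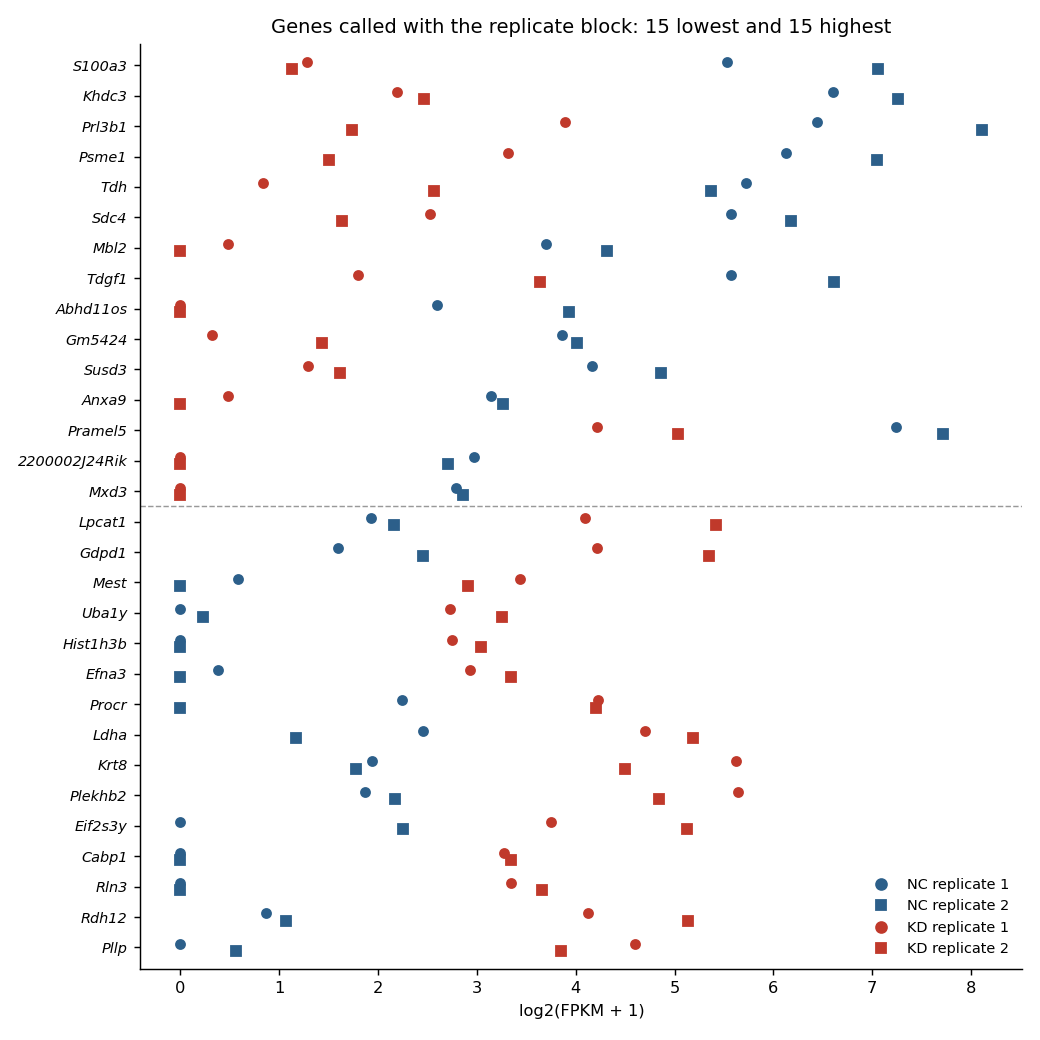
Values in log2(FPKM + 1) of the 15 lower (above the dashed line) and 15 higher (below it) blocked calls with the largest log2 fold change, NC in blue and KD in red, circle replicate 1 and square replicate 2. In these 30 genes both KD libraries lie on 1 side of both NC libraries.

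The NC libraries were also set beside those of the other experiments. *Atp6v0c*, a subunit of the vacuolar proton pump, was at 18.3 and 24.0 FPKM in NC and 147 and 128 in KD, but in the other 22 libraries at 8C, KD libraries included, it lay between 47.3 and 194. The KD libraries and 2 of the 6 NC libraries set side by side here gave the calls, so part of the separation was set by the selection. Of the 34 lower genes 32 had both KD libraries below all 6 NC libraries of the 3 experiments at 8C, as did 5.83% of all genes. Of the 31 higher genes 25 had both KD libraries above all 6, against 9.42% of all genes. The 6 exceptions were *Atp6v0c*, *Eif2s3y*, *Hist1h3b*, *Krt8*, *Rnpep* and *Uba1y*. For *Krt8* the other NC libraries reached 28.3 FPKM. The 2 lower genes were *2200002J24Rik* and *Nudt16l1*.

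Further higher genes had these values. *Crip1*, a LIM domain protein, had 131 and 142 FPKM in NC and 790 and 720 in KD. *Upp1*, uridine phosphorylase, had 2.94 and 3.41 FPKM in NC and 26.1 and 15.6 in KD. *Gdpd1* had 2.02 and 4.5 FPKM in NC and 17.6 and 39.9 in KD. *Crip1* was the most abundant of the higher calls. *Lpcat1* had 2.82 and 3.46 FPKM in NC and 16 and 41.9 in KD. *Procr* had 3.75 and 0 FPKM in NC and 17.7 and 17.5 in KD. *Rnpep*, an aminopeptidase, had 59.6 and 23.5 FPKM in NC and 175 and 90.2 in KD. *Rnpep* was among the 6 genes that did not clear all NC libraries of the 3 experiments. *Brdt*, a bromodomain protein of the germline, had 8.77 and 9.4 FPKM in NC and 34.7 and 41.3 in KD. *Ino80e*, a subunit of the INO80 chromatin remodeller, had 26.4 and 16.9 FPKM in NC and 94.1 and 54.1 in KD.

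*Eif2s3y* and *Uba1y* are genes of the Y chromosome and report the share of male embryos in a pool. *Eif2s3y* was at 0 and 3.77 FPKM in NC and 12.5 and 33.8 in KD, *Uba1y* at 0 and 0.171 in NC and 5.63 and 8.55 in KD, and *Ddx3y* at 0 and 1.34 in NC and 6.10 and 9.57 in KD. *Xist*, expressed from an inactive X chromosome in female cells, was at 43.6 and 2.58 FPKM in NC and 10.3 and 1.75 in KD. The first NC library had no Y-linked value above 0 among 9 genes, and neither had the first libraries of single *Rarg* KD and single *Nr2c2* KD. This NC library also had the highest *Xist* level of the 24 libraries at 8C. The part of the embryos' sex in the other results was not tested.

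The 65 genes were followed into knockdowns of other experiments. In single *Nr5a2* KD embryos, which have NC libraries of their own, 34 of the 34 lower genes were lower, with a median log2 fold change of -2.81 against -0.23 for all genes, 63.3% of which were lower there. Of the 34, 22 passed the test there at an adjusted p of 0.05, as did 240 of all 9684 genes in this direction. All 31 higher genes were higher there (median 1.34), against 36.3% of all genes. Of these 31, 4 passed the test, as did 36 of all 9684 genes in this direction. *S100a3* had 18.9 and 56.9 FPKM in the NC of that experiment and 0 and 2.25 in its *Nr5a2* KD. *Khdc3* had 320 and 264 FPKM in that NC and 2.14 and 2.67 in that KD. In 4KD embryos, again with NC of their own, 34 of 34 lower (median -1.92) and 28 of 31 higher genes (median 1.28) kept their direction, against 49.9% and 50.1% of all genes. Single *Rarg* KD moved 24 of 34 lower genes and 18 of 31 on the higher side in that direction, with medians of -0.17 and 0.19, where 58.3% of all genes were lower and 41.3% higher. The single KD of *Nr1h3* moved 19 and 12 of them (medians -0.10 and -0.13), where 49.2% of all genes were lower and 50.3% higher. The single KD of *Nr2c2* moved 21 and 9 of them (medians -0.12 and -0.32), where 72.7% of all genes were lower and 26.7% higher.

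Read the other way, the genes called in single *Nr5a2* KD were followed into the triple knockdown. Of the 240 genes lower there at an adjusted p of 0.05 and tested here, 231 were lower in the *Nr5a2*/*Rarg*/*Nr1h3* KD, with a median of -1.16 (-1.04 in replicate 1 and -1.20 in replicate 2) against 0.11 for all genes. In 165 of them both KD libraries lay below both NC libraries, which 12.3% of all genes did. Of the 36 genes higher in single *Nr5a2* KD, 34 were higher here, with a median of 1.78, and 30 did not overlap, which holds for 20.2% of all genes in this direction. The medians of these lists were -1.23 and 1.38 in the *Rarg*-spared, -0.99 and 1.27 in the *Nr1h3*-spared and 0.22 and 0.02 in the *Nr5a2*-spared triple knockdown, all of which share their NC with the KD here. In 4KD embryos they were -1.48 and 1.91. The genes lower by at least 2-fold at an unadjusted p of 0.05 in single *Rarg* KD (164 tested) had a median of -0.07 here, and those of single *Nr1h3* KD (105 tested) a median of -0.13. At that same limit the genes of single *Nr5a2* KD (1187 tested) had a median of -0.55.

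**Figure D4:**
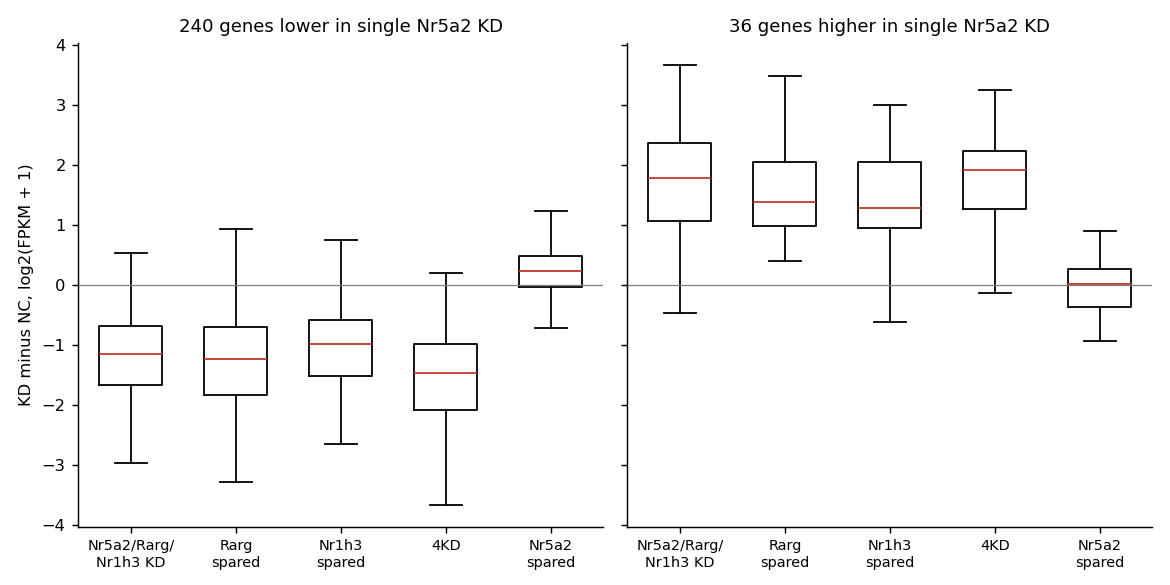
Log2 fold change against NC of the 240 genes lower (left) and the 36 genes higher (right) in single *Nr5a2* KD at an adjusted p of 0.05, in the 4 triple knockdowns and in 4KD embryos, drawn as boxes with the median as a red line, the quartiles as box edges and whiskers of up to 1.5 box lengths. The medians of the embryos with *Nr5a2* left in place are 0.22 and 0.02, and those of the other 4 groups, each with *Nr5a2* siRNA, are between -1.48 and -0.99 on the left and between 1.27 and 1.91 on the right.

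The lists chosen for the 2 other targeted receptors held no called gene. They leave out *Rdh12*, *Plin2* and *Dgat2*, called above. Of 15 LXR target and lipogenesis genes 10 were tested, 4 of them lower and 6 higher, with a median of 0.09. *Apoe*, an apolipoprotein gene that LXR induces, had the largest value, 17.1 and 9.49 FPKM in NC and 60.8 and 47.5 in KD (log2 fold change 1.99, adjusted p = 0.32, blocked 0.0952). *Scd1*, a fatty acid desaturase gene, was at 12.3 and 7.22 FPKM in NC and at 3.92 and 9.32 in KD. Of 15 genes of retinoic acid handling and response only 3 passed the filter, with a median of 0.20, and *Rdh10*, which oxidises retinol, stood at 5.85 and 8.70 FPKM in NC and at 8.30 and 8.46 in KD. Among 19 tested genes of cholesterol synthesis and uptake 8 were lower and 11 higher (median 0.12). The lowest of them were *Ebp*, a sterol isomerase, at 67.2 and 105 FPKM in NC and 20.3 and 28.2 in KD, and *Fdft1*, squalene synthase, at 215 and 222 in NC and 80.2 and 72.0 in KD (log2 fold change -1.51, blocked adjusted p = 0.0688). *Sc5d*, a desaturase of the same pathway, was highest with 0 and 3.87 FPKM in NC and 7.05 and 4.40 in KD. Of 9 NR5A2 targets known from other tissues 3 were tested, and *Ccne1*, cyclin E1, stood at 224 and 173 FPKM in NC and at 91.9 and 81.7 in KD (log2 fold change -1.17, adjusted p = 0.651, blocked 0.158). Among 6 tested receptor partners and coregulators 3 were lower and 3 higher, from *Ncoa1* (-0.87) to *Ncoa3* (0.25 among those of 5 FPKM or more).

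Lists of lineage genes held 3 called genes. Of all 10626 genes tested 4466 were lower and 6077 higher by direction, and 0.32% were called lower and 0.292% higher. Of 18 tested pluripotency factors 10 were lower and 8 higher (median -0.19), and *Tdgf1* was the 1 called. *Nanog* had 15.7 and 13.7 FPKM in NC and 3.68 and 6.98 in KD (log2 fold change -1.36, adjusted p = 0.651), while *Pou5f1* was at 71.2 and 24.3 in NC and 71.4 and 27.6 in KD. *Prdm14* had the highest change of the list, with 1.62 and 2.2 FPKM in NC and 4.64 and 8.80 in KD. In the trophectoderm list 6 of 8 tested genes were higher (median 0.59), with *Krt8* called. In 4 of the 8 the groups did not overlap, which holds for 20.2% of all genes in this direction. Its partner *Krt18* had 10.7 and 19.3 FPKM in NC and 63.7 and 22.3 in KD, and *Hand1*, a trophoblast factor, 84.0 and 13.1 in NC and 26.9 and 6.29 in KD. In the list of primitive endoderm and FGF pathway genes 8 of 13 were higher (median 0.34), with *Dusp6* called. *Gata4* had 3.05 and 1.71 FPKM in NC and 8.38 and 10.8 in KD (adjusted p = 0.378), and *Gata6* 18.4 and 26.1 in NC and 5.86 and 22.3 in KD.

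Other lists held no called gene. In the Hippo pathway 8 of 16 tested genes were higher, led by *Cyr61* (1.70), and *Wwtr1*, which encodes the coactivator TAZ, had 21.2 and 19.2 FPKM in NC and 62.1 and 57.1 in KD (blocked adjusted p = 0.0665). In the Klf family 6 of 11 were higher, from *Klf13* at -1.42 to *Klf17* at 1.32. *Bmp4*, listed at 0 in both NC libraries, was at 8.83 and 4.31 FPKM in KD, and *Id3* was at 375 and 523 in NC and 271 and 212 in KD. Of 16 genes of compaction, junctions and polarity 9 were higher, *Cldn6* most (1.21), while *Pard6b*, of the apical polarity complex, had 9.05 and 2.36 FPKM in NC and 0.709 and 0.734 in KD. Of 8 genes of blastocoel fluid transport 5 were lower, from *Aqp3* (-0.89) to *Aqp9* (0.81). Cyclin genes were higher in 7 of 9 cases (median 0.34), *Ccnd3* most among the abundant ones (0.96). Of 10 genes of the p53 response 7 were higher (median 0.80), among them *Phlda3* with 1.45 and 9.25 FPKM in NC and 10.1 and 24.3 in KD and *Mdm2* with 19.8 and 20.5 in NC and 42.4 and 44.5 in KD, while *Trp53inp1* was at -0.79 and *Cdkn1a* had 175 and 182 FPKM in NC and 222 and 120 in KD. Of 9 DNA methylation genes 6 were lower, from *Tet2* (-0.46) to *Tet1* (0.51). Among those with a mean of at least 5 FPKM *Trim28* was lowest (-0.29) and *Dnmt3l* highest (0.47). Heat shock genes ran from *Hsp90aa1* (-0.42) to *Hspb1* (0.83) with 5 of 8 higher, and of 4 tested genes of RNA sensing and interferon response 2 were higher.

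Transcripts of earlier stages showed values in both directions. Of 14 tested oocyte-deposited transcripts 12 were higher in KD, with a median of 0.55 (1.13 in replicate 1 and 0.39 in replicate 2), and none was called. Several were low, with *Zp2*, *Gdf9*, *Nlrp5* and *Figla* at most 3.94 FPKM in the 4 libraries. The list's median was 0.18, 0.63 and 0.12 in the *Rarg*-, *Nr1h3*- and *Nr5a2*-spared embryos. It was -0.44 in 4KD and -0.31 in single *Nr5a2* KD. *Zp3*, a zona pellucida gene, had 37.3 and 35.4 FPKM in NC and 77.1 and 172 in KD (adjusted p = 0.545), and *Padi6* was lowest with 12.5 and 22.9 in NC and 14.6 and 12 in KD. Of 9 tested 2-cell burst genes 7 were lower (median -0.48), *Tcstv1* most, with 5.83 and 5.73 FPKM in NC and 0 and 3.05 in KD. The highest was *Zfp352* (1.02), at most 2.57 FPKM in the 4 libraries, and among genes with a mean of at least 5 FPKM *Tdpoz1*, with 6.49 and 8.95 in NC and 15.0 and 10.2 in KD. *Tcstv1* and *Tdpoz1* belong to families of near-identical copies. Of the 527 tested late 2C genes of the study's stage list 205 were lower and 321 higher, with a median of 0.19 against 0.11 for all genes.

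The genes that the study's stage list gives as activated at the 4C and 8C stages numbered 61, of which 60 were tested. In the KD 38 of them were lower and 22 higher, with a median log2 fold change of -0.38, against 0.11 and 42.0% lower for all genes. The median was -0.11 in replicate 1 and -0.44 in replicate 2, and the SD of the library medians within groups was 0.09. Centred gene by gene on the 10 libraries, the list's median was 0.24 and 0.36 in the NC libraries and -0.05 and -0.23 in the KD libraries, so the groups did not overlap. The 4 members called with the block, *Prl3b1*, *S100a3*, *2200002J24Rik* and *Anxa9*, were all lower, where 0.32% of all genes were called lower. Without overlap 18 members were lower and 7 higher, which 12.3% and 20.2% of all genes were. *Anxa9*, an annexin gene, had 7.85 and 8.58 FPKM in NC and 0.4 and 0 in KD. The 15 members of the 4C list had a median of -0.58 and the 45 of the 8C list one of -0.23. Members without a call lay on both sides. *Crygs*, a crystallin gene, had 17.9 and 50.5 FPKM in NC and 1.45 and 8.97 in KD, and *Hsd17b1*, of steroid metabolism, 1.66 and 11.8 in NC and 0 in both KD libraries. *Calm5* was highest, at 0 and 20.5 FPKM in NC and 29.5 and 54.1 in KD, and *Amt*, of the glycine cleavage system, went from 21.9 and 4.40 to 40.3 and 15.4. The list medians of the *Rarg*-spared and *Nr1h3*-spared groups were -0.27 and -0.25 and that of the *Nr5a2*-spared group 0.19, with the same NC libraries in each.

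The comparison of the *Nr2c2*-spared embryos with the 2 other triple knockdowns that carry *Nr5a2* siRNA, those that spare *Rarg* and *Nr1h3*, is an exchange of siRNAs and uses no NC library: the groups compared received *Nr2c2* siRNA in place of *Rarg* or *Nr1h3* siRNA. The presence of *Nr2c2* siRNA and the lack of *Rarg* or *Nr1h3* siRNA cannot be told apart in either group alone. No gene passed the limma test at an adjusted p of 0.05 and 240 genes had an unadjusted p under 0.05, 0.706% of the genes tested lower and 1.55% higher. With the block 1 gene was called, *Ndufs6*, a subunit of complex I of the mitochondrial respiratory chain, higher where *Nr2c2* was left in place (0.00941% of the genes tested). *Ndufs6* had 336 and 397 FPKM in the *Nr2c2*-spared embryos and 77.9 to 134 in the 4 libraries of the 2 other groups (log2 fold change 2.01 ± 0.39 SE, adjusted p = 0.675, blocked 0.0484). In NC it had 238 and 470 FPKM, and in the *Nr5a2*-spared embryos, which also received *Nr2c2* siRNA, 103 and 150.

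In single *Nr2c2* KD embryos *Ndufs6* was at 34.1 and 93.6 FPKM, against 498 and 412 in the NC of that experiment, and it was 1 of 8 genes called there, all of them lower. The others were *Nr2c2*, *Ccdc84*, *Morn2*, *Parl*, *Sdr39u1*, *Slirp* and *Scarna6*, and *Parl*, a rhomboid protease of the inner membrane, and *Slirp*, which binds mitochondrial mRNA, act in mitochondria like *Ndufs6*. *Nr2c2* itself was a target of the siRNAs in the groups compared, so its direction was set by the design. The 6 other genes that could be tested were all higher in the *Nr2c2*-spared embryos than in the 2 other triple knockdowns, by 1.13 to 2.23 on the log2 scale, and in 5 of the 6 the groups did not overlap, which holds for 4.79% of all genes in this direction. *Ccdc84* had 6.09 and 5.81 FPKM in the *Nr2c2*-spared embryos and 0.275 to 2.42 in the 2 other groups. *Parl* had 35.4 and 36.9 FPKM against 9.27 to 18.3. *Slirp* had 249 and 611 FPKM against 119 to 234. Against NC these 6 genes differed by -1.02 to 1.04 and none was called. A wider list, the 75 genes at least 2-fold lower in single *Nr2c2* KD at an unadjusted p of 0.01, was higher in 55 cases in the *Nr2c2*-spared embryos (median 0.56 against 0.01 for all genes). The 16 genes higher there at the same limits were higher here in 10 cases (median 0.18). By direction 5417 of all 10626 genes tested were higher in this comparison and 5158 lower. At an unadjusted p of 0.05 the 248 genes at least 2-fold lower had a median of 0.13.

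**Figure D5:**
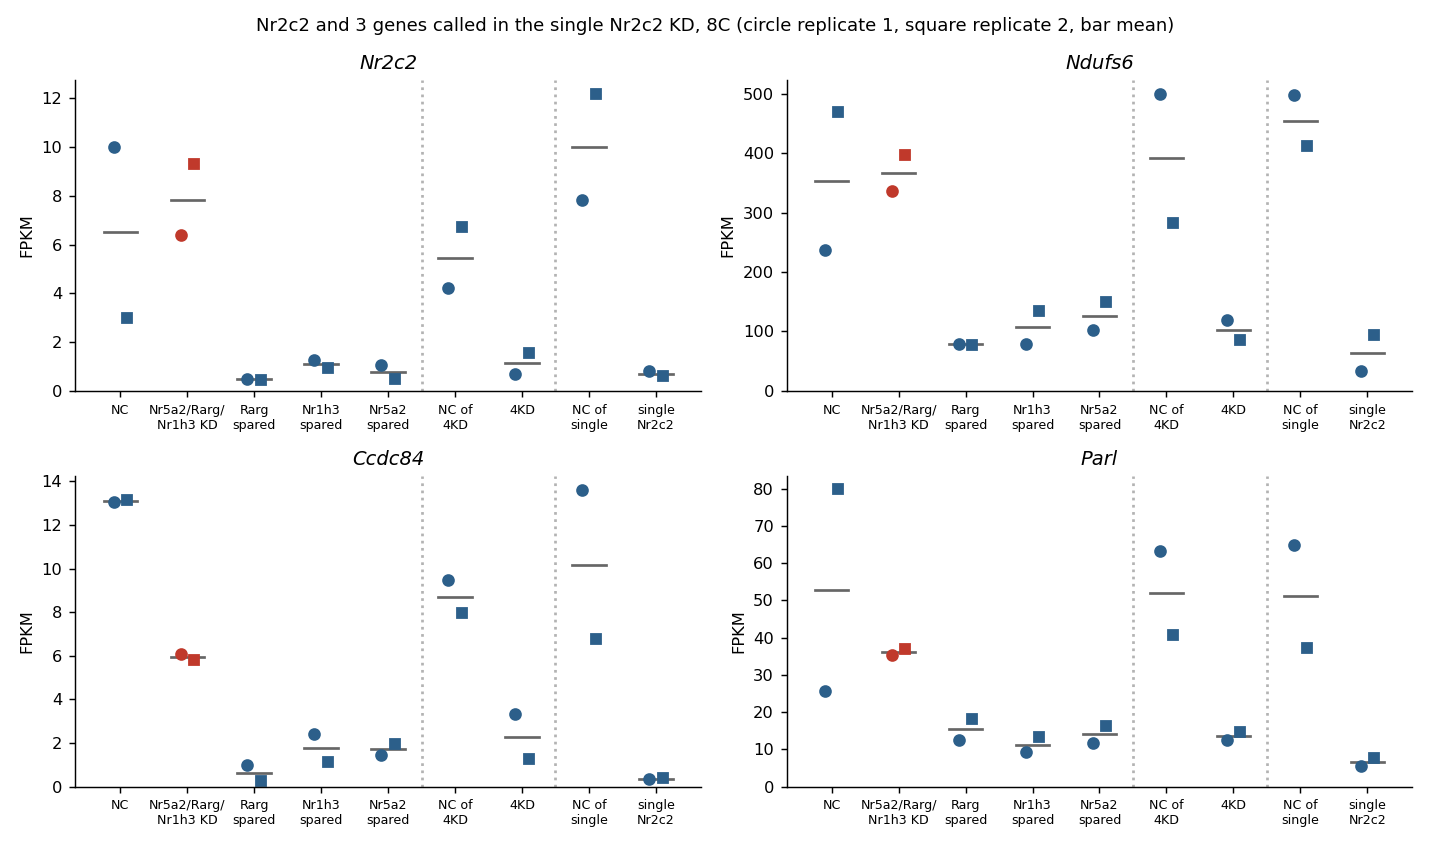
FPKM of *Nr2c2*, *Ndufs6*, *Ccdc84* and *Parl* in 9 groups at 8C, 1 point per library (circle replicate 1, square replicate 2) with a bar at the mean and dotted lines between the 3 experiments. *Ndufs6* stands at 336 and 397 in the *Nr5a2*/*Rarg*/*Nr1h3* KD in red, at 77.9 to 150 in the 6 triple knockdown libraries with *Nr2c2* siRNA, and at 34.1 to 119 in 4KD and single *Nr2c2* KD.

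By fold change the genes that led this comparison were *Rhox9*, *Rhox3g*, *Gnrh1*, *Msantd4* and *2310039H08Rik*, none of them called. *Msantd4* had 6.94 and 5.07 FPKM in the *Nr2c2*-spared embryos and 5.04 and 4.96 in NC, and at most 0.807 in the 6 libraries of the other triple knockdowns. *Rhox9*, a homeobox gene of an X-linked cluster, had 4.66 and 12.6 FPKM and was listed at 0 in the 4 libraries compared, while NC had 17.5 and 27.0. *Rhox9* and *Rhox3g* have near-identical copies, so their values are uncertain. *Igsf1* and *Mpzl3* led the other direction, *Igsf1* with 0 and 0.837 FPKM against 2.00 to 15.6, also without a call.

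Against the *Nr5a2*-spared embryos, which differ by having *Nr2c2* siRNA in place of *Nr5a2* siRNA, the KD again showed the genes above. No gene was called without the block (limma, lowest adjusted p = 0.0821, 899 genes at an unadjusted p under 0.05, 4.36% lower and 4.1% higher), and 74 genes were lower and 42 higher with it, 0.696% and 0.395% of the genes tested. *S100a3* had 1.44 and 1.18 FPKM here and 52.6 and 80.3 in the *Nr5a2*-spared embryos (log2 fold change -4.84, blocked adjusted p = 0.0087). *Khdc3* had 91.8 and 149 FPKM and *Psme1* 68.9 and 104 FPKM in the *Nr5a2*-spared embryos, close to their NC levels. *Susd3* had 57.1 and 27.5 FPKM there and *Abhd11os* 13.4 and 15.5. All 34 genes lower against NC also lay below both *Nr5a2*-spared libraries without overlap, as 19.3% of all genes did, and 29 of the 31 higher genes lay above them, as 18.3% of all genes did. These 2 comparisons share the KD libraries. On the higher side *Tmsb4x*, thymosin beta 4, had 105 and 28.9 FPKM against 3.74 and 1.87 (blocked adjusted p = 0.0220), and *Rdh12* and *1700013H16Rik* were called too. *4930550L24Rik* (88.4 and 26.0 FPKM against 0 and 0.788) and *Pla2g1b* were not called. Without 1 library 0 or 1 gene was called with the block.

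Whether the triple knockdown differed from the 4KD was tested as an interaction, because each has its own NC. Of 10931 genes none passed the limma test with or without the block, and 238 had an unadjusted p under 0.05 without the block (0.704% lower, 1.47% higher) and 303 with it (0.906% and 1.87%). The block here joins same-numbered libraries of both experiments, whose library numbers come from different runs. Whether these libraries deviate alike was measured within the triple knockdown experiment only, so the blocked fit is not a paired test across experiments. By the labels the NC siRNA dose differed, 15 μM here and 20 μM in the 4KD experiment, while the study's methods give a single NC dose of 20 μM, and the relative depth of the 4KD libraries was lower (0.343 to 0.576). *Nr5a2* fell alike in both experiments (interaction 0.07 ± 0.69 SE). *Nr2c2* had an interaction of 2.00 ± 0.80 and *Ndufs6* one of 2.01 ± 0.64, neither of them called (adjusted p = 1). *Ndufs6* was at 501 and 283 FPKM in the NC of the 4KD experiment and at 119 and 85.4 in 4KD. By fold change *Hist1h3b*, *Man2c1os*, *Atp6v0c*, *Cd7* and *Msantd4* led the higher direction and *Pdlim4*, *Skap2*, *Ly6c1* and *Lxn* the lower one. *Atp6v0c* had 194 and 83.3 FPKM in the NC of the 4KD experiment and 118 and 89.8 in 4KD, against 18.3 and 24.0 in the NC here. *Pdlim4* had 0 and 1.65 FPKM in that NC and 14.4 and 9.66 in 4KD, and 5.06 and 6.79 in NC and 3.12 and 3.52 in KD here.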

How the data were processed

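The labels place 2 pools of embryos in each group. By their methods, the authors aligned trimmed Smart-seq2 reads to mm9 (TopHat) and derived the deposited FPKM with Cufflinks and the refFlat annotation of UCSC. FPKM carry no counts and no normalization between libraries, and none was added in the main fit. Libraries of a group differ in their run of library numbers, but the labels do not say whether they came from separate animals, so p-values measure the spread between these libraries, which may be technical.

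FPKM were compared with limma 3.58.1 (R 4.3.3) on log2(FPKM + 1), for genes whose mean FPKM reached 1 in any group, over the 10 libraries of the experiment (14 with the 4KD experiment), with a trended eBayes and p adjusted after Benjamini and Hochberg over all genes tested. The authors' edgeR test needs counts and could not be repeated. Replicate numbers paired the libraries: same-numbered libraries deviated alike in all 10 pairs of groups (r of 0.278 to 0.513, 0.286 for KD and NC), and the column names carry 1 run of library numbers per replicate. The blocked fit is therefore given beside the main one. The fits were tested on simulated data. Promoters came from RefSeq (GRCm38.p6) and were placed on mm9 by exact and unique match, and genes by GENCODE vM1.

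Members, lists, comparisons and alternatives were chosen with earlier results of these data known. The naming rule took the targets and their relatives, from each list the called members and the lowest and highest member with a mean FPKM of at least 5, and per direction the 15 genes (5 in the other comparisons) with the largest fold change at an unadjusted p under 0.01, groups not overlapping and a mean FPKM of at least 5. Further genes were named after their values were seen: the other blocked calls, *Tet1*, *Tet2*, *Zfp352*, *Nanog*, *Pou5f1*, *Krt18*, *Gata4*, *Fdft1*, *Wwtr1*, *Bmp4*, *Mdm2*, *Cdkn1a*, *Crygs*, *Hsd17b1*, *Ddx3y*, *Xist* and the genes called in single *Nr2c2* KD. Alternatives were a pseudocount of 0.1, no filter, a filter at a mean FPKM of 5, median-ratio and quantile scaling, eBayes without a trend, the block, only the groups compared, and leaving out each library. Combinations with the block were added after the data were seen.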

Additional observations from a re-analysis of the deposited data

How the results depend on the processing

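The count of called genes depended on the replicate block. For KD against NC it was 0 without the block, 65 with it, 1 under median-ratio scaling, 1 under quantile normalization, 2 with only the groups compared, and 0 or 1 without 1 library. With the block it was 48 at a pseudocount of 0.1, 89 at a mean FPKM of 5, 82 (54 lower, 28 higher) under median-ratio scaling, 92 (57 lower, 35 higher) under quantile normalization, 281 with only the groups compared, 10 without a trend, and 0 to 3 without 1 library (3 without NC replicate 1, 0 without NC replicate 2 or either KD library). Of the 65 genes 44, 61, 63 and 10 were called again at a pseudocount of 0.1, under median-ratio scaling, under quantile normalization and without a trend, and all 65 kept their direction. The median of all genes was 0.11 in the main fit, 0 under median-ratio scaling and 0.01 under quantile normalization.

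For the *Nr2c2*-spared against the *Rarg*-spared and *Nr1h3*-spared embryos the block gave 1 call. Against the *Nr5a2*-spared embryos it gave 116, or 54 (pseudocount 0.1), 126 (mean FPKM of 5), 119 (median-ratio), 105 (quantile), 738 (only the groups compared), 33 (no trend) and 0 to 1 without 1 library. Without the block the count was 2 with no filter, 1 under quantile normalization and 0 to 1 without 1 library. The interaction with 4KD gave 1 call with no filter and 0 to 2 without 1 library.

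The median of the 4-8C genes, -0.38, was -0.59 at a pseudocount of 0.1, -0.50 at a mean FPKM of 5, -0.58 under quantile normalization, and between -0.40 and -0.13 without 1 library (-0.13 without KD replicate 2), or -0.34 to -0.21 with the block (-0.28 without NC replicate 1). The cause of these moves was not tested.

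Genes near 0 or with unlike replicates changed sign. *Amhr2* was -0.015 under median-ratio scaling and -0.071 under quantile normalization, and *Nr1h2* -0.026 under quantile normalization, the same with the block. Without 1 library and without the block *Amhr2* ran from -1.05 to 1.24, *Nr1h2* from -0.64 to 0.94, *Rarg* from -2.47 to 0.079, *Rdh10* from -0.049 to 0.45, *Hand1* from -2.57 to 0.020, *Nr2c2* from -0.34 to 1.13, *Padi6* from -0.75 to 0.082, *Gata6* from -1.74 to 0.020 and *Trim28* from -0.80 to 0.22. With the block the ranges were -0.50 to 0.69 for *Amhr2* (-0.041 without NC replicate 2), -0.24 to 0.53 for *Nr1h2*, -0.36 to 0.76 for *Rdh10* (-0.057 without KD replicate 2), -0.31 to 1.10 for *Nr2c2* (-0.12 without KD replicate 2), -0.76 to 0.098 for *Padi6*, -0.59 to 0.0026 for *Trim28*, -1.24 to 0.14 for *Scd1* and -1.80 to 0.026 for *Id3*. With depth unknown, low FPKM values have no interval.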
